A study of Mus musculus with 12 samples.

Results

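Messenger RNA of 10 genes of the TGF-beta system was followed in mouse intestinal mesenchymal cells with and without MyD88, before and after lipopolysaccharide. The genes were the ligands Tgfb1, Tgfb2 and Tgfb3, the receptors Tgfbr1 and Tgfbr2, and the accessory receptors Tgfbr3 and Eng. The others were Ltbp1 and Ltbp2, of the latent TGF-beta binding protein family, and the inhibitor Smad7. All 10 were chosen by name, with their values in the 4 groups known, and because Tgfbr3 was far lower in MyD88-deficient cells given LPS. They are 10 of the 14907 genes the deposited tables list, and all 10 had values in every library.

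TGF-beta ligands are secreted in a latent form. The propeptide stays wrapped around the growth factor and is tied to the matrix by members of the latent TGF-beta binding protein family. Integrins or proteases release the active ligand. The active ligand binds the type II receptor TGFBR2, which recruits and phosphorylates the type I receptor TGFBR1. Betaglycan, encoded by Tgfbr3, and endoglin, encoded by Eng, present ligand to these kinases, and betaglycan matters most for TGF-beta 2. TGFBR1 phosphorylates SMAD2 and SMAD3, which enter the nucleus with SMAD4. SMAD7 is an early target of this pathway and blocks the type I receptor. In mesenchymal cells the pathway is known for inducing contractile and matrix genes.

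The cells were primary mesenchymal cells of the small intestine of C57/Bl6 mice, at passage 3, sorted on GFP and starved of serum overnight. Of the 12 libraries, 3 came from wild-type (wt) untreated cells, 3 from wt cells given LPS at 2 µg/ml for 6 hours, 3 from untreated MyD88 knockout (MyD88ko) cells and 3 from MyD88ko cells given the same LPS. LPS comes from the outer membrane of Gram-negative bacteria, and MyD88 is an adaptor of its receptor TLR4. The knockout genotype is labelled ColVIcre-MyD88F/F-RosamTmG, in which a collagen VI promoter drives Cre in mesenchymal cells, Cre cuts the floxed MyD88 allele, and a reporter at Rosa26 turns from red to green. The wt genotype is labelled MyD88F/F-RosamTmG, without Cre, whereas the series text calls the wt cells ColVIcre+. If the label holds, wt cells lack the Cre that turns the reporter green, which is at odds with sorting on GFP. Effects of Cre, of sorting and of losing MyD88 could then not be told apart. The labels do not say whether replicates came from separate animals, so p-values measure the spread between these libraries, which may be technical. The untreated and the LPS libraries carry separate runs of library codes, so treatment cannot be told apart from library series.

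Depth was about 2.5 to 5.31 megareads per library, as estimated from the steps between low values. Values are normalized read counts. Myd88 itself read 99, 98 and 103 (wt untreated), 171, 204 and 213 (wt LPS), 14, 8 and 10 (MyD88ko untreated) and 24, 22 and 5 (MyD88ko LPS), so it was lower in all 6 knockout libraries. Tags from the 3′ end need not lie in the deleted part of the gene. Mesenchymal markers (11 of 11 listed) summed to between 44943 and 144532 in every library. Col1a1, also a target gene counted below, is the largest part of that sum. Pdgfra read 314 to 611 in the wt libraries and 73 to 158 in the MyD88ko libraries. Pdgfrb read 883 to 1443 in the untreated libraries and 513 to 816 in those with LPS. With groups pooled, the other listed mesenchymal markers overlapped both between genotypes and between treatments. For Vim, at 3907 to 5726 in wt, only MyD88ko LPS replicate 3 (4711) overlapped, and the other MyD88ko libraries read 8878 to 10122. Col1a1 overlapped between the untreated groups but not between the LPS groups (35191 to 60610 in wt, 72836 to 83203 in MyD88ko). Of 10 endothelial markers, Prox1 alone is listed in all 12 libraries, at 0 to 28. Kdr and Tek are listed in some groups, and the other 7, among them Pecam1 and Cdh5, in none. Hepatocyte markers (3 of 5 listed: Alb, Serpina1a and Serpina3k) summed to 103 to 256 in the 6 untreated libraries and to 3 to 19 in the 6 with LPS, so they moved with treatment, and their part in the LPS results was not tested. A pair of wt untreated libraries stood apart: the 4 of 9 epithelial markers listed in all 12 libraries (Epcam, Krt19, Cldn4 and Muc2) summed to 390, 8 and 194 in wt untreated replicates 1, 2 and 3 and to 4 to 52 in the other 9 libraries. Cdh1, which is not listed in MyD88ko LPS, read 3, 0 and 719 in the wt untreated libraries. Results that use the wt untreated group are therefore also given without replicates 1 and 3, which leaves that group with replicate 2 alone, assumed to vary like the other groups. Replicate 2 stood apart in another way: mesenchymal markers summed to 53266, 104118 and 44943 in wt untreated replicates 1, 2 and 3. The part of epithelial RNA in those results was not tested. In bulk RNA, fewer cells of a type and less RNA per cell cannot be told apart.

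The bases ahead of a gene help to set where its transcription starts, and 7 of the 10 genes are in a RefSeq promoter table (GRCm38.p6). The 250 bases before the start are shown for Tgfb1 and Tgfb2, ligand genes that rose with LPS in wt cells, and for Tgfbr1, the receptor gene that fell. Capitals mark matches, on either strand, to 5 motifs: AP-1 as TGANTCA, NF-kB as GGGANTTTCC, the SMAD motif as CAGAC, the GC box as GGGCGG and the TATA box as TATAAA. Tgfb1 lies at chr7:25686752-25687001 on the plus strand, Tgfb2 at chr1:186705990-186706239 on the minus strand and Tgfbr1, at the upstream of its 2 listed starts, at chr4:47352972-47353221 on the plus strand.
Tgfb1: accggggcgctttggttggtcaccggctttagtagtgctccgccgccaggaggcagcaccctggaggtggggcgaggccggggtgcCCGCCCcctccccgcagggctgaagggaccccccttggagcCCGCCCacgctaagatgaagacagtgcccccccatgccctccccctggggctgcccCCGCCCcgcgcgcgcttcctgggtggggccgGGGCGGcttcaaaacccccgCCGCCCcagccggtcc
Tgfb2: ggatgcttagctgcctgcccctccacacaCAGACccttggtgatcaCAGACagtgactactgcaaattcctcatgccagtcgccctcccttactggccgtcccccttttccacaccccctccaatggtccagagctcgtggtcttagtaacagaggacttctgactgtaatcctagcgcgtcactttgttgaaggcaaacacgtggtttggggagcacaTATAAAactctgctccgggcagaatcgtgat
Tgfbr1: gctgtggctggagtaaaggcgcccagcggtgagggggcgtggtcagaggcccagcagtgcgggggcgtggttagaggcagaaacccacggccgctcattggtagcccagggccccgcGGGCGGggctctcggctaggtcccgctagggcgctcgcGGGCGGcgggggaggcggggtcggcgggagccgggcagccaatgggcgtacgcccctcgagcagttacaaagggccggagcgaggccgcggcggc

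These ligand promoters differ in kind. The Tgfb1 stretch is 75.2% G and C, holds 21 CpG pairs and carries 5 GC boxes, with no match to the TATA box. The Tgfb2 stretch is 53.6% G and C, holds 8 CpG pairs and no GC box, and has a TATA box that begins 31 bases before the start, along with a pair of SMAD motifs that begin 221 and 204 bases before it. The Tgfbr1 stretch is 74.8% G and C with 29 CpG pairs and GC boxes 133 and 95 bases before the start. Over the 32841 promoters of the table the medians are 52.4% and 6 CpG pairs. A GC box is found in 32.7% of them, a TATA box in 12.4%, a SMAD motif in 42.2%, an AP-1 motif in 6.75% and the NF-kB motif in 0.356%. No stretch shown has a match to the AP-1 or NF-kB letters, and no 2 matches of different motifs overlap. A match describes letters and is no evidence of binding.

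In wt cells all 3 ligand genes were higher with LPS and the type I receptor gene was lower, though treatment cannot be told apart from library series. Among the 10 genes, 4 rose, namely Tgfb1, Tgfb2, Tgfb3 and Ltbp2, and 1 fell, Tgfbr1 (limma, Benjamini-Hochberg adjusted p under 0.05 over 12385 genes, called below). Over all genes tested 19.2% were called, 9.55% higher and 9.66% lower. The values of wt LPS and wt untreated did not overlap for 7 of the 10 genes, against 34.8% of all genes. The median log2 difference of the 10 genes was 0.71, against 0.01 for all genes. Since the genes were chosen with these values known, neither share is evidence for the group as a whole. Without wt untreated replicates 1 and 3, 2 of the 10 genes were called, Tgfb1 and Eng. In the authors' deposited table none of the 5 called genes has an adjusted p under 0.05: it gives 0.1573 for Tgfb1, 0.4264 for Tgfb2, 0.5689 for Tgfb3, 0.2787 for Tgfbr1 and 0.2679 for Ltbp2. The mesenchymal markers summed to 44943 to 104118 in untreated wt cells and to 72267 to 121468 with LPS, and their part in these calls was not tested.

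**Figure D1:**
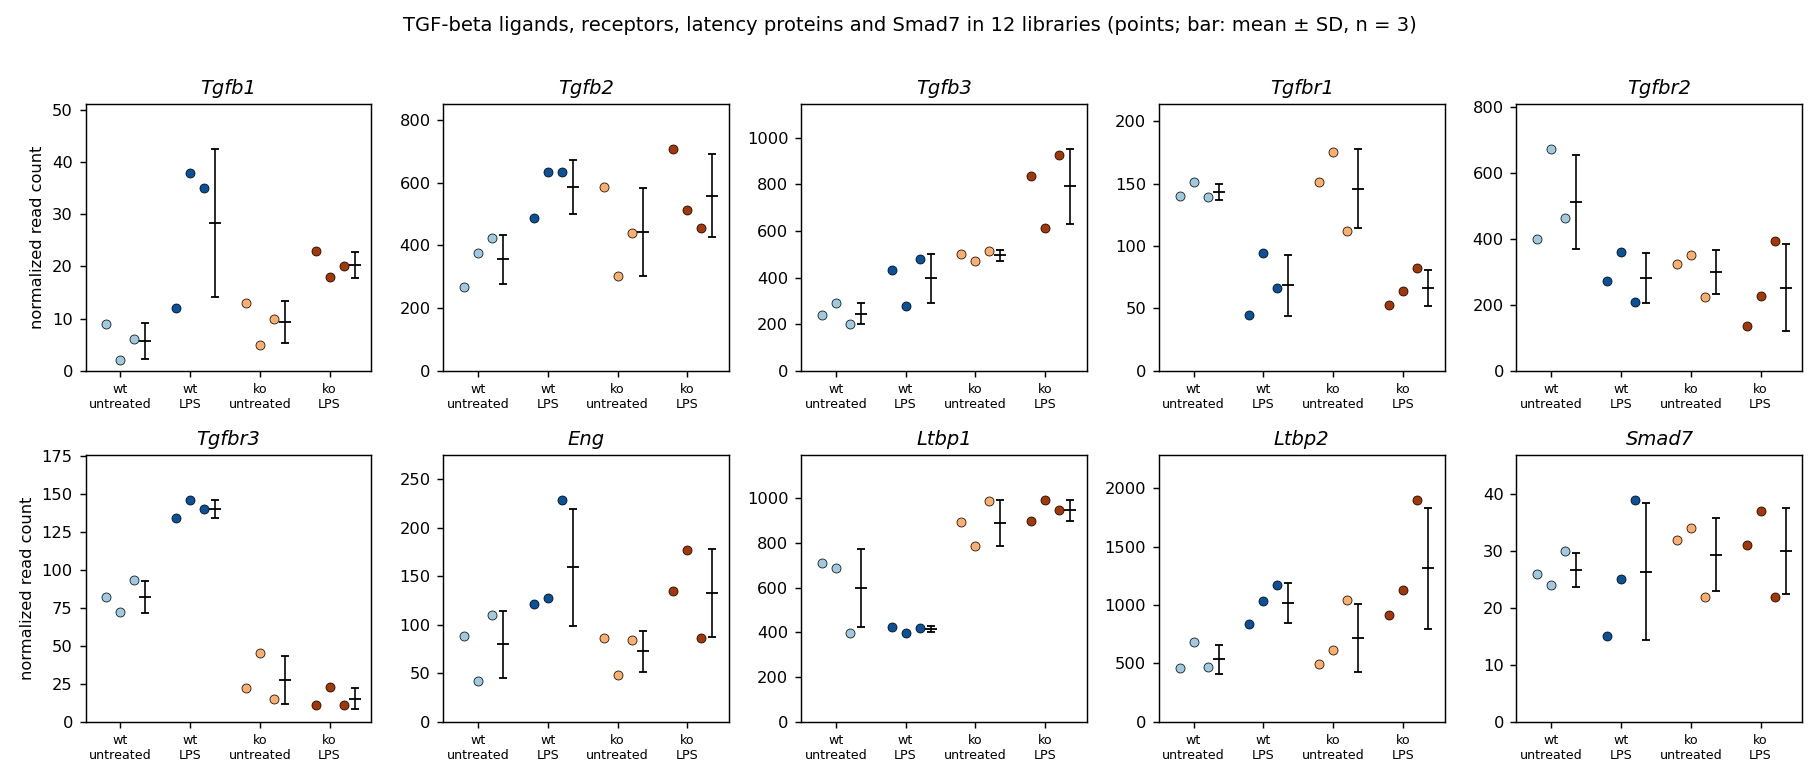
Normalized read counts (vertical axes, from 0) of the 10 genes in 12 libraries; each point is a library, colours are the 4 groups (ko stands for MyD88ko), and bars give mean ± SD of 3 libraries. Tgfbr3 lies between 72 and 146 in the 6 wt libraries and between 11 and 45 in the 6 MyD88ko libraries, while Tgfbr1 lies between 45 and 94 in the 6 LPS libraries and between 112 and 175 in the 6 untreated libraries.

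Among the ligands, Tgfb1 encodes the isoform best known in fibrosis and immune regulation. Its values were 9, 2 and 6 in untreated wt cells and 12, 38 and 35 with LPS. The groups do not overlap, but wt LPS replicate 1 is close to the highest untreated library. On the log2(value + 1) scale Tgfb1 rose by 2.15 ± 0.59 (SE), 4.43-fold (adjusted p = 0.01424). These are small numbers, about 2 to 9 reads per untreated library. Leaving out wt untreated replicate 2, wt LPS replicate 2 or wt LPS replicate 3 ended the call, with log2 differences of 1.65, 1.86 and 1.92 and adjusted p of 0.06958, 0.06815 and 0.06453. Without wt untreated replicates 1 and 3 together the difference was 3.13 (adjusted p = 0.02071).

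Tgfb2 encodes the isoform that depends most on betaglycan for receptor binding. Its values were 267, 376 and 422 in untreated wt cells and 486, 635 and 634 with LPS, with no overlap. It rose by 0.73 ± 0.25, 1.66-fold (adjusted p = 0.04844). This call sits at the threshold. It was lost in 10 of 16 alternatives, among them the removal of wt untreated replicate 1 or 2 or of any wt LPS library (adjusted p 0.05587 to 0.2067), and without wt untreated replicates 1 and 3 together the adjusted p was 0.322 at a difference of 0.63.

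Tgfb3 (chr12:86056744-86079041, minus strand, mm10), the third ligand, read 240, 292 and 201 in untreated wt cells and 432, 279 and 479 with LPS. It rose by 0.68 ± 0.23, 1.60-fold (adjusted p = 0.04716), although wt LPS replicate 2 lies within the untreated range. The call was lost in 9 of 16 alternatives. Leaving out any of replicates 1 and 3 of either group ended it (adjusted p 0.1039 to 0.1919), as did dropping both of those wt untreated libraries (difference 0.40). A TMM-like rescaling, limma without a trend, no filter on low values and a fit of the compared groups only also ended it (adjusted p 0.05017 to 0.1044). Tgfb3 overlaps Ttll5 on the opposite strand at its 3′ end, and the sources used here do not say whether counting used strand, so reads of these genes cannot be told apart.

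Among the signalling receptors, Tgfbr1, the type I kinase, read 140, 151 and 139 in untreated wt cells and 45, 94 and 66 with LPS. All 3 LPS libraries lie below all 3 untreated ones. Tgfbr1 fell by 1.12 on the log2 scale (SE 0.29), 2.17-fold lower (adjusted p = 0.009296). The call was lost without wt LPS replicate 1 (log2 difference −0.85, adjusted p = 0.06623) and without wt untreated replicates 1 and 3 together (−1.20, adjusted p = 0.1018).

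Tgfbr2, the type II kinase that binds ligand, read 400, 672 and 464 in untreated wt cells and 272, 360 and 208 with LPS. The groups do not overlap, and the difference of −0.87 ± 0.32 did not pass the test (adjusted p = 0.06793, 95% interval −1.55 to −0.19). With only the 2 wt groups in the fit the adjusted p was 0.02922.

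The accessory receptors were both higher in each wt LPS library than in any wt untreated library, and neither passed. Tgfbr3 read 82, 72 and 93 in untreated wt cells and 134, 146 and 140 with LPS, a difference of 0.77 ± 0.38 (adjusted p = 0.1758, 95% interval −0.03 to 1.56). Each of these groups is tight, with SDs of 10.5 and 6.0 around means of 82.3 and 140.0. The SE comes from a spread that all 4 groups share, and fitted on the 2 wt groups only, the adjusted p was 0.04171.

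Eng, best known from endothelial cells, read 88, 42 and 110 in untreated wt cells and 121, 128 and 229 with LPS. The difference was 1.03 ± 0.37 (adjusted p = 0.05551). It passed without wt untreated replicate 3 (1.31, adjusted p = 0.03058) and without replicates 1 and 3 together (1.84, adjusted p = 0.02374). The endothelial marker Prox1 read 12, 15 and 21 and then 19, 28 and 19 in these groups, and its part in the Eng values was not tested. Eng overlaps Fpgs on the opposite strand at its 3′ end, with the same limit as for Tgfb3.

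Of the latent TGF-beta binding protein family, whose members bind matrix, Ltbp2 passed and Ltbp1 did not. Ltbp2 read 462, 680 and 467 in untreated wt cells and 837, 1037 and 1176 with LPS, with no overlap. It rose by 0.93 ± 0.29, 1.91-fold (adjusted p = 0.02817). Leaving out replicate 1 or 3 of wt untreated or replicate 2 or 3 of wt LPS ended the call (adjusted p 0.07078 to 0.1053), as did dropping replicates 1 and 3 of wt untreated together (0.57, adjusted p = 0.4647).

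Ltbp1 (chr17:75005568-75392512, plus strand, mm10), which holds latent TGF-beta in the matrix, read 709, 689 and 395 in untreated wt cells and 423, 398 and 418 with LPS, where the 3 libraries lie close together. Wt untreated replicate 3 lies below the whole LPS group. The difference of −0.48 ± 0.22 did not pass (adjusted p = 0.1287) and passed without that library (−0.76, adjusted p = 0.01312).

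The inhibitor Smad7 did not move detectably. It read 26, 24 and 30 in untreated wt cells and 15, 25 and 39 with LPS, so the LPS libraries spread on either side of the untreated ones. The difference was −0.11 ± 0.41 (adjusted p = 0.8798), and its 95% interval of −0.96 to 0.74 does not exclude a change of 1.5-fold in either direction. The 12 libraries ranged from 15 to 39, and the means of the 4 groups, 26.7, 26.3, 29.3 and 30.0, lie closer together than the SD within wt LPS of 12.1.

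**Figure D2:**
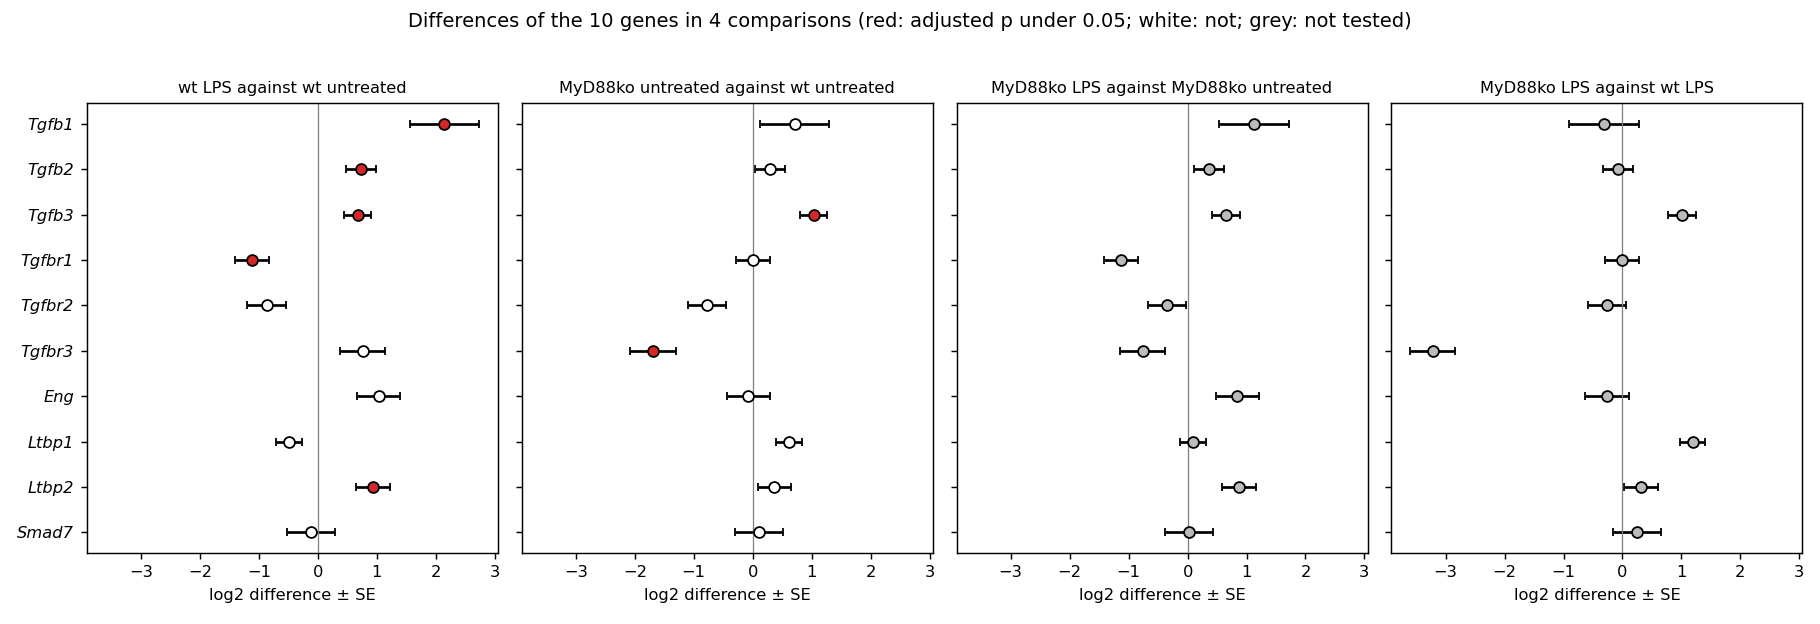
Log2 differences of the 10 genes on the log2(value + 1) scale (horizontal axes; points with SE) in 4 comparisons; red points passed an adjusted p of 0.05, white points did not, and grey points belong to comparisons that hold the MyD88ko LPS group and are a description. In wt LPS against wt untreated Tgfb1 lies at 2.15 and Tgfbr1 at −1.12, and Tgfbr3 lies at −3.22 in MyD88ko LPS against wt LPS.

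Untreated MyD88ko cells differed from untreated wt cells in 2 of the 10 genes. Tgfb3 rose and Tgfbr3 fell, and the other 8 did not pass. Over all genes 1.88% were called, 0.791% higher and 1.09% lower. For 4 of the 10 genes the groups did not overlap, against 20.4% of all genes. The genes were chosen with these values known, and because Tgfbr3 was far lower in MyD88ko cells given LPS. Neither share is therefore evidence for the group as a whole. The comparison shares its wt untreated libraries with the LPS comparison above.

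The wt untreated libraries read 82, 72 and 93 for Tgfbr3, and the untreated knockout libraries 22, 45 and 15. The gene lies at chr5:107106570-107289629 on the minus strand (mm10). Every knockout library is lower than every wt library. Tgfbr3 fell by 1.69 on the log2 scale (SE 0.38), 3.23-fold lower (adjusted p = 0.02587). Leaving out replicate 1 or 3 of either group ended the call (log2 difference −1.35 to −1.69, adjusted p 0.07322 to 0.1751), as did dropping both of the wt ones (−1.51, adjusted p = 0.5095). In the authors' deposited table the ratio for Tgfbr3 in this comparison is 0.34, with an adjusted p of 0.1366.

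For Tgfb3 the untreated knockout libraries read 503, 469 and 515, against 240, 292 and 201 for wt. The knockout libraries are tight, and all lie above the wt ones. Tgfb3 rose by 1.03 ± 0.23, 2.05-fold (adjusted p = 0.02513). Leaving out any library of that group, or replicate 1 or 3 of wt untreated, ended the call (adjusted p 0.06817 to 0.1263), as did dropping both of the latter (0.76, adjusted p = 0.5877). The authors' deposited table gives Tgfb3 an adjusted p of 0.4228 here.

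Among the 8 that did not pass, Ltbp1 and Tgfbr2 also had groups that do not overlap. Ltbp1 read 892, 784 and 988 in MyD88ko untreated, a difference of 0.61 ± 0.22 (adjusted p = 0.1585). Tgfbr2 read 322, 349 and 223 there, a difference of −0.77 ± 0.32 (adjusted p = 0.2522). Tgfbr1 read 151, 175 and 112, a difference of 0.00 ± 0.29 with a 95% interval of −0.59 to 0.60. For Smad7 the interval was −0.74 to 0.97.

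In the MyD88ko LPS group the 10 genes are described with no p, since its values helped to choose them. Tgfbr3 read 11, 23 and 11 there, the lowest of the 4 groups and about 11 to 26 reads per library. The order of its groups was wt LPS (140.0 ± 6.0, SD, n = 3), wt untreated (82.3 ± 10.5), MyD88ko untreated (27.3 ± 15.7) and MyD88ko LPS (15.0 ± 6.9). Only the MyD88ko groups, which are neighbours in that order, overlap in their libraries. Between the LPS groups the difference was −3.22 ± 0.38, 9.32-fold lower in MyD88ko. In the authors' deposited table the corresponding ratio is 0.1135.

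The LPS differences of Tgfbr3 had opposite signs in the genotypes, 0.77 ± 0.38 in wt and −0.76 ± 0.38 in MyD88ko, and the MyD88ko groups overlap. The difference between these responses was −1.53 ± 0.54. None of the 10 genes was past the call rule for that difference, where 0.0161% of all genes were.

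Ltbp1 went the other way from Tgfbr3. It read 896, 991 and 948 in MyD88ko LPS, each above every wt LPS library, a difference of 1.19 ± 0.22. Tgfb3 read 836, 613 and 926, a difference of 1.01 ± 0.23 from wt LPS, with no overlap. These 2 genes and Tgfbr3 are the 3 of 10 past the call rule between the LPS groups, where 1.49% of all genes are called, 0.452% higher and 1.04% lower. They are also the 3 whose values do not overlap there, against 15.8% of all genes. Nothing is read from these shares, because this contrast was used to choose the genes.

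LPS in MyD88ko cells, again as a description, went with lower Tgfbr1. Tgfbr1 read 151, 175 and 112 in untreated knockout cells and 53, 64 and 82 with LPS, a difference of −1.13 ± 0.29 beside −1.12 ± 0.29 in wt. It is the 1 gene of 10 past the call rule, where 5.98% of all genes are called, 2.58% higher and 3.4% lower. Nothing is read from this count, because values of the MyD88ko LPS group helped to choose the genes. The difference between the genotypes' responses for Tgfbr1 was −0.01 with a 95% interval of −0.85 to 0.84, too wide to show that they act alike.

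Tgfb1 read 13, 5 and 10 in untreated knockout cells and 23, 18 and 20 with LPS, a difference of 1.12 ± 0.59 without overlap. Tgfb3 also does not overlap (0.65 ± 0.23), which with Tgfbr1 makes 3 of 10, against 25.5% of all genes. Nothing is read from this share either. Ltbp2 read 494, 612 and 1047 and then 914, 1130 and 1902, a difference of 0.88 ± 0.29 in overlapping groups. Eng read 86, 48 and 84 and then 135, 177 and 86, a difference of 0.85 ± 0.37, while Prox1 read 14, 10 and 6 and then 5, 0 and 0. The mesenchymal markers summed to 91465 to 113906 and then to 135207 to 144532, and their part in these differences was not tested. Tgfb2 read 585, 302 and 440 and then 708, 514 and 455 (0.36 ± 0.25), and Tgfbr2 read 322, 349 and 223 and then 134, 226 and 394 (−0.36 ± 0.32). Both spread widely within MyD88ko LPS, where replicate 3 has the highest Tgfbr2 and the lowest Tgfb2. That library also stood apart from the other 11 on the third principal component of all genes, at 63.1 against −23.1 to 20.6. Smad7 read 31, 37 and 22, within its range elsewhere.

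Over the 12 libraries, Ltbp1 was the gene of the set least like Tgfbr3. Among 9269 protein-coding genes with a mean of at least 20, the Pearson r of log2(value + 1) between Tgfbr3 and Ltbp1 was −0.90, the fourth lowest. The lowest were Ppm1l (−0.95), a phosphatase gene, Cnn2 (−0.92), a calponin, and Csrp2 (−0.92), a LIM protein of smooth muscle. Etl4 followed at −0.89. The genes most like Tgfbr3 were Prkar2b (0.96), a regulatory subunit of protein kinase A, Hp (0.95), which encodes haptoglobin, Ptges (0.94), the inducible prostaglandin E synthase, Ccbe1 (0.93), a matrix protein of lymphatic growth, and Kcne4 (0.93), a potassium channel subunit. The 12 points share 4 groups and a common normalization, so r is given as a description.

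Kcne4 shows the difference between genotypes plainly: it read 57 to 79 in wt untreated, 70 to 88 in wt LPS, 15 to 30 in untreated knockout cells and 12 to 30 with LPS. Within each genotype its untreated and LPS values overlapped, unlike those of Tgfbr3 in wt cells. Hp was listed at 0 in 1 MyD88ko untreated and 2 MyD88ko LPS libraries and read 24 to 111 in wt. Smad7 had no such companion, and the highest r was 0.81 with Orc6, a replication gene, followed by Tinf2 (0.77), Rbak (0.77), Zfp655 (0.76) and Fuca2 (0.75). Within the 10 genes the highest r was between Tgfb1 and Eng (0.82), Tgfbr3 also ran against Tgfb3 (−0.76), and Tgfbr1 ran against Eng (−0.73).

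**Figure D3:**
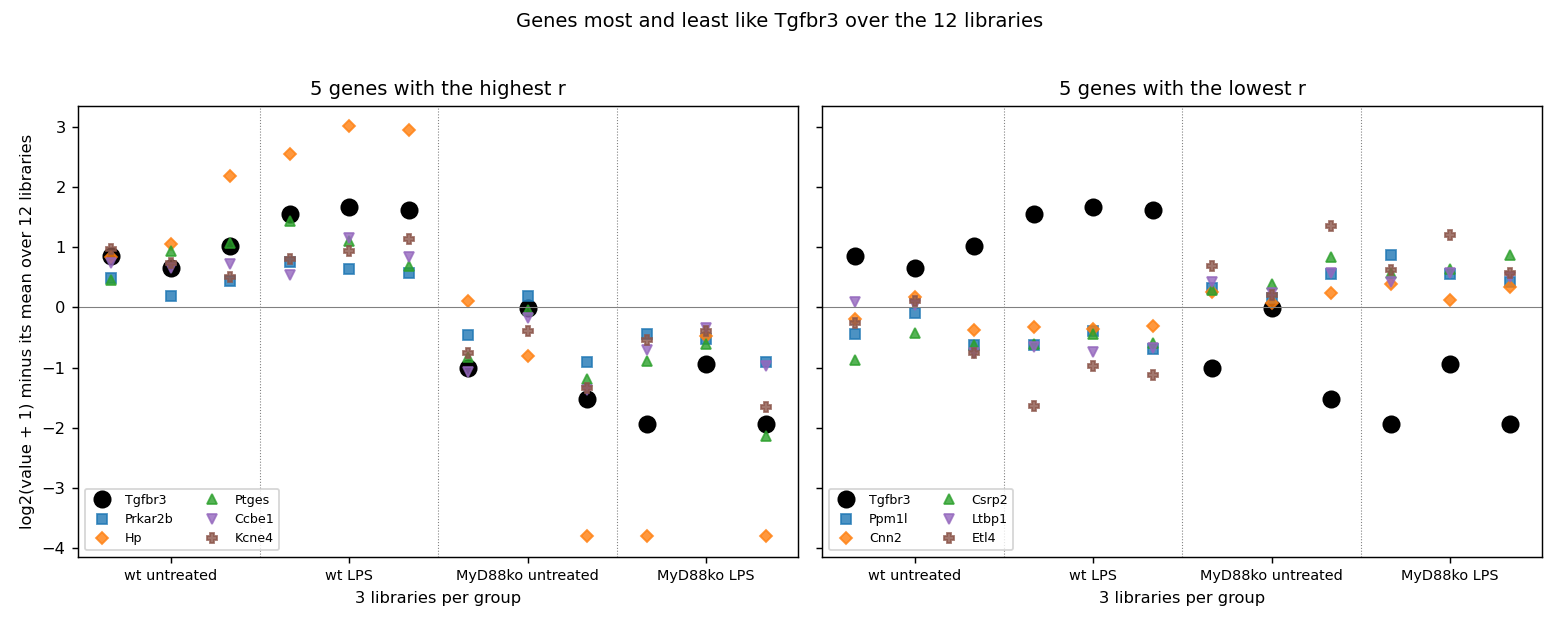
Values of Tgfbr3 (black) and of the 5 genes with the highest (left) and lowest (right) Pearson r with it, as log2(value + 1) minus the gene's mean over 12 libraries (vertical axis), for 3 libraries in each of 4 groups (horizontal axis). Prkar2b (r = 0.96) follows Tgfbr3 downward in the MyD88ko libraries, and Ppm1l (r = −0.95) and Ltbp1 (r = −0.90) lie higher there.

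Known targets of the pathway were counted next, from a list of 27 genes, of which 26 were tested. The list holds contractile, matrix and transcription factor genes and others, among them Il11, Cdkn2b, Nox4 and Pmepa1. In wt cells 7 targets were called higher with LPS and 1 lower, against 9.55% and 9.66% of all genes. The median difference was 0.48, against 0.01 for all genes. Tagln (transgelin) read 2403, 2633 and 2586 untreated and 8712, 6173 and 6177 with LPS, and rose by 1.45 ± 0.20 (adjusted p = 4.603e-05). Snai1, a transcription factor of mesenchymal transition, rose by 0.86 ± 0.23 (adjusted p = 0.01269) from 130, 143 and 114 to 248, 183 and 282. Its relative Snai2 fell by 0.76 (SE 0.24, adjusted p = 0.03132). The inhibitor Skil was at −0.61 and did not pass.

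Of the other risers, Lox, which crosslinks collagen, rose by 0.93 ± 0.18 (adjusted p = 0.001132), and Ctgf, a matricellular growth factor gene, by 0.81 ± 0.23 (adjusted p = 0.01888). Acta2 (0.69 ± 0.18, adjusted p = 0.01236) and Cnn1 (0.61 ± 0.19, adjusted p = 0.02982), contractile genes, rose as well, and Loxl2 was the seventh. Acta2 and Cnn1 are also on the smooth muscle marker list, whose 7 genes summed to 23198 to 26010 in untreated wt cells and 36367 to 41490 with LPS. Most of that sum is Acta2 itself, and the markers did not all move together. Myh11 and Actg2 were higher in every wt LPS library, and Des and Synpo2 overlapped. Lmod1 was lower, at 951, 909 and 782 untreated and 390, 445 and 542 with LPS. What part cell composition has in these counts was not tested. Without wt untreated replicates 1 and 3, only Tagln of the 8 remained called (1.40, adjusted p = 0.00592). There the differences were 0.97 for Ctgf, 0.75 for Lox, 0.71 for Acta2, 0.71 for Snai1 and 0.60 for Cnn1 (adjusted p 0.06092 to 0.2216). The count was 5 without wt untreated replicate 1, 3 without wt LPS replicate 1 and 4 without wt LPS replicate 3. Acta2 lost its call without wt LPS replicate 1 (adjusted p = 0.05411), Snai1 without wt LPS replicate 1 or 3 (0.051 to 0.06802), Ctgf also without wt untreated replicate 1 or 2 (0.05671 to 0.09323) and Cnn1 without those wt LPS libraries or wt untreated replicate 2 or 3 (0.06268 to 0.1059).

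Between untreated genotypes, 3 targets rose in MyD88ko and none fell, against 0.791% and 1.09% of all genes. They were Tagln (1.04 ± 0.20, adjusted p = 0.006947), Lox (0.93 ± 0.18, adjusted p = 0.008443) and Cnn1 (0.91 ± 0.19, adjusted p = 0.01448). The smooth muscle markers summed to 34413 to 40544 in MyD88ko untreated, again mostly from Acta2. Tagln lost its call without MyD88ko untreated replicate 2 (adjusted p = 0.06488), Lox without replicate 3 of that group (0.07897), and Cnn1 without replicate 3 of either group (0.05537 to 0.1266). Dropping wt untreated replicates 1 and 3 together ended these calls, at differences of 0.99 for Tagln, 0.75 for Lox and 0.90 for Cnn1. Without wt untreated replicate 2, which leaves the pair of libraries with high epithelial markers, the count was 9. Without MyD88ko untreated replicate 3 it was 1. The shares over all genes there are not given, so these counts are no result about the list.

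With LPS in MyD88ko cells, Tagln rose by 1.18 ± 0.20 (adjusted p = 0.001198) and Ctgf by 0.97 ± 0.23 (adjusted p = 0.0157), and Snai2 fell by 1.10 (SE 0.24, adjusted p = 0.00843). Between the LPS groups Ctgf was higher in MyD88ko by 1.02 ± 0.23 (adjusted p = 0.02716), at 67641, 41725 and 41997 against 24126, 21094 and 27979. Tgfbi, a secreted matrix protein, was lower by 1.77 ± 0.42 (adjusted p = 0.04315), at 87, 72 and 51 against 230, 379 and 151. The Ctgf call here ended without replicate 1 or 2 of wt LPS or replicate 1 of MyD88ko LPS (adjusted p 0.09946 to 0.1191), and the Tgfbi call without any library of the 2 groups but wt LPS replicate 3 (0.05173 to 0.1896). The LPS response of Ctgf in MyD88ko was not called without MyD88ko untreated replicate 2 or 3 or MyD88ko LPS replicate 1 (0.05258 to 0.08684). No target passed for the difference between the LPS responses, where 0.0161% of all genes were called. At an unadjusted p under 0.05, 1137 of 12385 genes stand in that comparison.

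**Figure D4:**
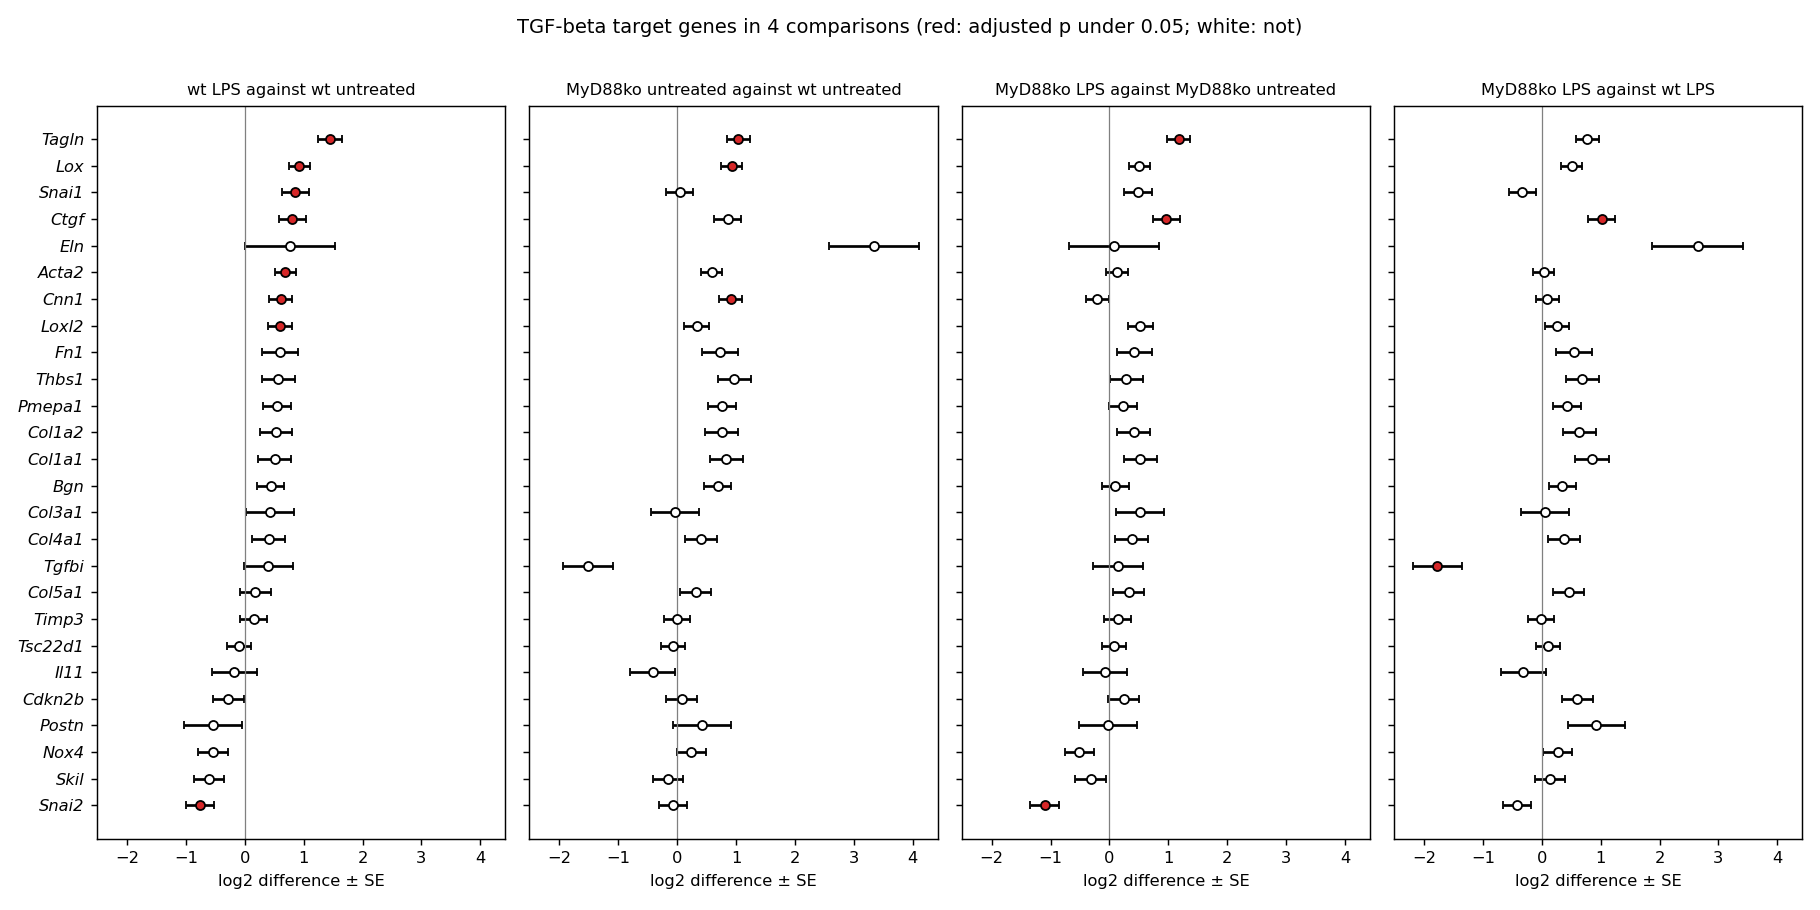
Log2 differences (horizontal axes; points with SE) of 26 TGF-beta target genes in 4 comparisons, ordered by their difference in wt LPS against wt untreated; red points passed an adjusted p of 0.05. Tagln is red in the first 3 panels, at 1.45, 1.04 and 1.18, and Snai2 lies lowest in wt LPS against wt untreated, at −0.76.

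Other genes of the pathway, 61 of 67 tested, were counted in 4 lists: latency and activation, ligand-binding proteins and accessory receptors, intracellular transducers and inhibitors, and BMP targets. In wt cells 7 were called higher with LPS and 2 lower, or 14.8% of the 61, against 19.2% of all genes. That share is below the background and is no result about the list. Inhba, the activin A subunit, read 69, 62 and 122 untreated and 287, 173 and 396 with LPS and rose by 1.73 ± 0.31 (adjusted p = 0.000704). Fstl3, an activin-binding protein, rose by 1.36 ± 0.26 (adjusted p = 0.0009177), from 76, 57 and 63 to 231, 157 and 131. Lrrc32, which encodes the GARP protein that holds latent TGF-beta at the cell surface, rose by 1.58 ± 0.23 (adjusted p = 7.709e-05), from 184, 146 and 148 to 502, 430 and 503. Nedd4l, a ubiquitin ligase that acts on SMADs, rose by 1.10 ± 0.24 (adjusted p = 0.002657). These 4 genes and Tagln stayed called in all 16 alternatives.

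Fbn1 (fibrillin, 1.34 ± 0.29, adjusted p = 0.002774), Nrp1 (a co-receptor, 1.01 ± 0.22, adjusted p = 0.003467) and Smad1 (a BMP-regulated SMAD, 0.93 ± 0.25, adjusted p = 0.01286) also rose. Vasn, a TGF-beta-binding protein, fell by 0.76 (SE 0.21, adjusted p = 0.01371), and Usp15, a deubiquitinase of the receptor complex, fell by 1.18 (SE 0.35, adjusted p = 0.02359). None of the 7 BMP target genes passed in any of the 5 comparisons. Over all genes 19.2% were called for LPS in wt cells and 1.88% between untreated genotypes. The shares were 5.98% for LPS in MyD88ko cells, 1.49% between the LPS groups and 0.0161% for the difference between the responses. With 7 genes, no call is no result about that list.

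Without wt untreated replicates 1 and 3, Fbn1, Nrp1, Smad1, Vasn and Usp15 were not called (adjusted p 0.07027 to 0.2877). The differences there were 0.64 for Fbn1, 0.99 for Nrp1, 0.75 for Smad1, −0.74 for Vasn and −1.15 for Usp15. Smad1 also lost its call without wt untreated replicate 1 or wt LPS replicate 3 (0.05597 and 0.05948), Vasn without wt untreated replicate 3 or wt LPS replicate 2 (0.05526 and 0.06169), and Usp15 without wt untreated replicate 1 or 2 or wt LPS replicate 3 (0.05306 to 0.1394). Without wt untreated replicate 2 the count was 15 in place of 9, with the same limits as for the target genes.

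Of these 61 genes, 2 fell in untreated MyD88ko cells, Bambi and Fst, and none rose (3.28%, against 1.88% of all genes). Other inhibitors on the lists did not pass, among them Fstl3 (0.79), Ski (0.77), Pmepa1 (0.76), Tgif1 (0.59), Smad6 (0.35) and Smurf1 (−0.26). Bambi, a decoy receptor, read 24, 18 and 12 in untreated wt cells and 3, 1 and 2 in untreated knockout cells, and fell by 2.67 (SE 0.56, adjusted p = 0.01476). Fst, the activin-binding protein follistatin, read 56, 60 and 70 and then 32, 15 and 9, and fell by 1.85 (SE 0.44, adjusted p = 0.03426). These are low values. Bambi lost its call without replicate 1 of wt untreated or replicate 2 or 3 of MyD88ko untreated (adjusted p 0.06396 to 0.1121), Fst without any of these libraries or replicate 2 or 3 of wt untreated (0.05042 to 0.219), and both when wt untreated was replicate 2 alone (differences −2.72 and −1.81, adjusted p 0.3128 and 0.4806). Fitted on the 2 untreated groups alone, the Bambi adjusted p was 0.07621. The count of 2 became 8 without wt untreated replicate 2, again with those limits.

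With LPS in MyD88ko cells 3 of the 61 passed (4.92%, against 5.98% of all genes). Bambi rose to 8, 19 and 10, by 2.12 ± 0.56 (adjusted p = 0.0283), while in wt cells it read 25, 15 and 21 with LPS, a difference of 0.19 ± 0.56. The difference between these responses, 1.93 ± 0.79, did not pass (adjusted p = 0.4524). Lrrc32 rose by 0.95 ± 0.23 (adjusted p = 0.01588) and Tgif1, a SMAD corepressor, fell by 0.85 (SE 0.23, adjusted p = 0.03053). Bambi lost its call without MyD88ko untreated replicate 2 or 3 or MyD88ko LPS replicate 2 (0.06823 to 0.1255), with a pseudocount of 5 (1.27, adjusted p = 0.05859) and in a fit of the 2 MyD88ko groups alone (0.1156), Lrrc32 without MyD88ko untreated replicate 1 or 2 or MyD88ko LPS replicate 1 (0.05632 to 0.08831), and Tgif1 without MyD88ko untreated replicate 2 or 3 or MyD88ko LPS replicate 1 or 3 (0.07447 to 0.1419).

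Between the LPS groups 2 of the 61 passed (3.28%, against 1.49% of all genes). Lrrc32 read 236, 163 and 241 in MyD88ko against 502, 430 and 503 in wt, lower by 1.18 ± 0.23 (adjusted p = 0.007367). Nedd4l read 113, 152 and 135 against 229, 258 and 303, lower by 0.98 ± 0.24 (adjusted p = 0.03849). The Lrrc32 call was lost without wt LPS replicate 1 or MyD88ko LPS replicate 2 (0.05325 to 0.06366) and the Nedd4l call without any of the 6 libraries (0.069 to 0.1774). None of the 61 genes passed for the difference between the LPS responses, where 0.0161% of all genes were called.

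Limma without a trend ended further calls of target and pathway genes. For wt LPS these were Ctgf, Cnn1 and Usp15 (adjusted p 0.05583 to 0.06727), and for MyD88ko untreated Tagln, Lox, Cnn1 and Fst (0.05449 to 0.08002). For LPS in MyD88ko cells they were Ctgf, Lrrc32 and Tgif1 (0.05018 to 0.08934), and between the LPS groups Ctgf, Tgfbi and Nedd4l (0.09169 to 0.155). After quantile normalization Acta2 was not called for wt LPS (0.06203), nor Ctgf between the LPS groups, where it was at 0.65 (0.1616). A fit of those 2 groups alone ended the Ctgf and Nedd4l calls between them (0.07305 and 0.07118).

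**Figure D5:**
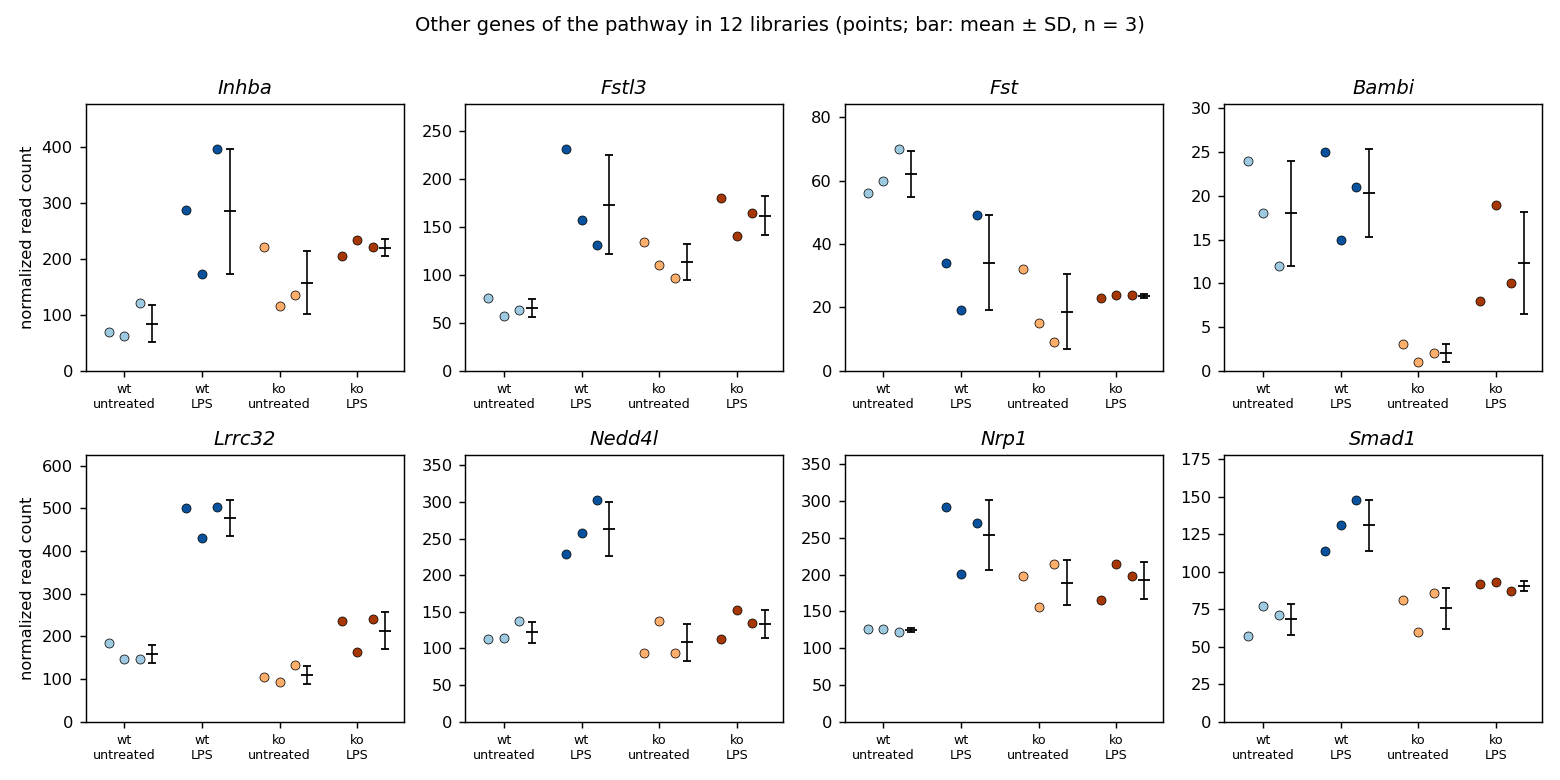
Normalized read counts (vertical axes, from 0) of 8 other pathway genes in 12 libraries; points are libraries, colours the 4 groups (ko stands for MyD88ko), bars mean ± SD of 3. Lrrc32 lies between 430 and 503 in wt LPS and between 163 and 241 in MyD88ko LPS, and Bambi lies between 1 and 3 in MyD88ko untreated.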

How the data were processed

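Libraries were QuantSeq 3′ mRNA libraries read on an Ion Proton, per the labels. Tools named in the submitters' processing notes are TopHat2, Bowtie2 and DESeq, with the build mm10 and no version or role. The authors deposited 4 comparison tables of 6 samples each. The values are a score per gene, a normalized read count that the authors rounded to whole numbers. The deposited tables also hold the authors' p-value per gene and a fold change, a ratio of group means after adding 1. Of 166719 values given in 2 tables, 0 differed. Rounding steps gave size factors of 0.634 to 1.2917.

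Values were tested as log2(value + 1) with limma 3.58.1 (R 4.3.3): limma-trend with robust empirical Bayes, two-sided, 1 fit of 12 libraries with 8 residual degrees of freedom. The fold of a low gene is understated on this scale. The 12385 genes tested had values in all 12 libraries and a mean of at least 10 in some group. On simulated data the fit was tested with known changes. Named genes were the 10 genes, up to 6 called genes with the smallest p per list and comparison, and the 5 genes most and least like Tgfbr3 or most like Smad7. Loxl2, Skil and, for wt LPS, Snai2 were named after their values were seen. Replicate numbers were not used to pair samples in the main fit. 1 result is not reported here. The genes and lists were chosen with earlier results of these data known. RefSeq promoters (GRCm38.p6) supplied sequences.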

Additional observations from a re-analysis of the deposited data

How the results depend on the processing

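Of the 10 genes, 5 were called for wt LPS against wt untreated. There were 3 calls with a TMM-like rescaling, 2 with limma without a trend, 3 with no filter on low values, 1 to 5 when a library was left out, and 2 without wt untreated replicates 1 and 3, an alternative chosen after seeing the data. For MyD88ko against wt untreated the count of 2 became 0 without a trend, 0 to 2 when a library was left out, and 0 without those replicates. Target genes called for wt LPS numbered 8, then 5 without a trend, 3 to 12 with a library left out and 1 without those replicates. For MyD88ko untreated they numbered 3, then 0 without a trend and 1 to 9 with a library left out. Without those replicates the calls of Tagln, Lox and Cnn1 were all lost. Between the LPS groups the target genes called numbered 2, then 1 after quantile normalization, 0 without a trend and 0 to 3 with a library left out. Other pathway genes called for wt LPS numbered 9, then 7 to 15 with a library left out and 4 without those replicates. For MyD88ko untreated they numbered 2, then 1 without a trend, 0 to 8 with a library left out and 0 without those replicates. For LPS in MyD88ko they numbered 3, then 1 without a trend and 0 to 4 with a library left out. Between the LPS groups they numbered 2, then 1 without a trend, 1 with only the groups compared and 0 to 2 with a library left out. Shares over all genes under these alternatives are not given, so the changed counts are no result about the lists. The cause of these changes was not tested, apart from the fewer samples.

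Over all genes, same-numbered libraries did not deviate together (r −0.114 to 0.171 over 18 pairs, −0.211 to 0.162 over 36 other pairs). The main fit therefore did not pair them. With 3 libraries per group these r cannot exclude that they were paired. With a replicate block, target genes called for MyD88ko untreated numbered 5 and other pathway genes 4, and the Tgfb2 adjusted p for wt LPS was 0.05755. No call of the 10 genes changed sign under any alternative. Differences near 0 did: without wt untreated replicates 1 and 3, MyD88ko against wt untreated was −0.07208 for Tgfbr1 and 0.73 for Eng, and Smad7 for wt LPS was 0.03027. With a library left out, Tgfbr1 ranged from −0.14 to 0.18 and Eng from −0.48 to 0.20 for MyD88ko untreated, and Smad7 from −0.43 to 0.23 for wt LPS and from −0.0003353 to 0.30 for MyD88ko untreated. Of the 10 genes' values under alternatives, 43 lost a call, 6 gained one, 12 changed sign in tested comparisons, and 549 kept direction and call or, where untested, moved by less than the SD between replicates. Of these 549, 16 changed sign in comparisons with MyD88ko LPS, which are described with no p. Depth limits genes with low values, among them Tgfb1, Smad7 and Bambi, at under 50 reads in every library.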
